A study of Arabidopsis thaliana with 42 samples.

Results

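The transcripts AT1G50290, AT5G15360, AT2G15560 and AT5G60250 of Arabidopsis thaliana were followed across seedlings with mutations in the ACC synthase (ACS) genes. They were chosen by name because their levels were high in the lines called hexa or miR, and each is read by 1 probe set whose only listed gene it is, so 4 of 22746 probe sets are described. AT1G50290 lies on chromosome 1, AT2G15560 on chromosome 2, and AT5G15360 and AT5G60250 on chromosome 5. All are listed as protein-coding genes in RefSeq (assembly TAIR10.1), and the annotation used here gives them a locus code and no name or role. No sequences of these genes were used here.

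The study measured RNA from seedlings, 10 days old and grown in the light, on 42 one-colour Affymetrix arrays, with 3 biological replicates for each of 14 groups. The higher order set held the lines penta, hexa, hepta and miR and a Col control. The single set held a Col control of its own and 8 lines, which are acs1A, the pair acs2B and acs2C, acs4A, the pair acs5C and acs5D, acs6E and acs9B. All plants grew on the same medium at 25 C with 16 h of light per day after 2 days at 4 C. The labels name neither the genes altered in penta, hexa, hepta and miR nor any allele, and do not say what miR stands for. Whether a line goes back to 1 plant, and whether a replicate pooled seedlings, is not given either.

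ACC synthase makes 1-aminocyclopropane-1-carboxylic acid, the direct precursor of ethylene, a gaseous hormone that shapes seedling growth, ripening, senescence and responses to stress. Its isoforms are encoded by a gene family and act as dimers, and lines that combine mutations in several members are used to separate what each isoform does. The first part of an Arabidopsis locus code gives the chromosome, and the number after the G follows the order of genes along it.

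The values are log2 levels made by RMA, in which a step of 1 is a doubling of signal and dim probe sets still receive a value. The arrays of each set had like medians, 6.24 to 6.32 in the higher order set and 6.77 to 6.84 in the single set, and levels are not set against each other across sets. Of 27 organ marker genes looked for, 1 had a named probe set. PYK10, a beta-glucosidase abundant in roots, lay at 12.91 to 13.27 in the higher order set and 13.34 to 13.60 in the single set, near the top of every array, and no leaf, flower, pollen or seed marker could be checked. Of 45 probe sets for control transcripts added during labelling or hybridization, limma called 0 in penta, hexa and hepta against Col (1, 0 and 0 at an unadjusted p under 0.05), 5 in miR (15 at an unadjusted p under 0.05) and 26 to 36 in each single line. The part of these differences in the results was not tested. In RNA from seedlings, a change in the share of a cell type and a change in RNA per cell cannot be told apart.

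The gains fell into 2 combinations of lines. AT1G50290 and AT5G15360 were high in hexa, hepta and miR and near the Col level in penta. AT2G15560 and AT5G60250 were high in miR, and their levels in penta, hexa and hepta lay within 0.11 of Col on the log2 scale. These contrasts chose the 4 genes, so their sizes are given as a description without a test. The differences from Col share the same 3 Col arrays. Of all 22746 probe sets, limma called 2.08% higher than Col in penta, 4.44% in hexa, 6.96% in hepta and 12.3% in miR (adjusted p under 0.05). Between lines it called 7.31% in hexa against penta, 3.58% in hepta against penta, 16.2% in miR against penta, 3.95% in hepta against hexa, 7.83% in miR against hexa and 9.59% in miR against hepta.

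AT1G50290 had log2 levels of 9.55, 9.69 and 9.63 in hexa, 9.15, 8.95 and 8.85 in hepta, 9.31, 9.34 and 9.37 in miR, and 6.39, 6.62 and 6.44 in penta, against 6.25, 6.49 and 6.36 in Col. Every array of hexa, hepta and miR lay above every array of Col and penta, and the penta and Col arrays overlapped. The log2 difference from Col was 3.26 ± 0.09 (SE) in hexa, a 9.55-fold higher signal, 2.98 ± 0.09 in miR and 2.62 ± 0.09 in hepta, and 0.12 ± 0.09 in penta. The probe set lay between percentiles 92.2 and 92.9 of the tested probe sets on the hexa arrays and between 50.1 and 53.2 on the Col arrays.

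Among the 3 high lines AT1G50290 had an order, hexa above miR above hepta, in which no group overlapped the next. The mean was 9.62 ± 0.07 in hexa, 9.34 ± 0.03 in miR and 8.98 ± 0.15 in hepta (SD, n = 3 each). Hepta differed from hexa by -0.64 ± 0.09 (SE), miR from hexa by -0.28 ± 0.09 and miR from hepta by 0.36 ± 0.09. Penta and Col, at 6.48 ± 0.12 and 6.36 ± 0.12 (SD), did not differ beyond their spread.

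AT5G15360 had log2 levels of 8.68, 8.50 and 8.67 in hexa, 7.92, 7.76 and 7.76 in hepta, 8.65, 8.57 and 8.34 in miR, and 5.66, 5.58 and 5.49 in penta, against 5.94, 4.84 and 5.24 in Col. The same lines were high as for AT1G50290, again with no overlap with Col or penta. The log2 difference from Col was 3.28 ± 0.18 (SE) in hexa, 9.72-fold, 3.18 ± 0.18 in miR, 2.48 ± 0.18 in hepta and 0.24 ± 0.18 in penta. The SD was 0.09 to 0.16 in the lines and 0.56 in Col. Without Col replicate 1, the brightest, the difference was 3.58 in hexa.

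AT5G15360 stood at 8.52 ± 0.16 in miR and 8.62 ± 0.10 in hexa (SD), levels that overlapped, with miR minus hexa at -0.10 (95% interval -0.48 to 0.27). Hepta was lower than both, at 7.81 ± 0.09. It differed from hexa by -0.81 ± 0.18 (SE), and miR lay 0.70 ± 0.18 above hepta. Both genes were therefore lower in hepta than in hexa and miR on every array, while the order of hexa and miR was clear of the spread for AT1G50290 alone.

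**Figure D1:**
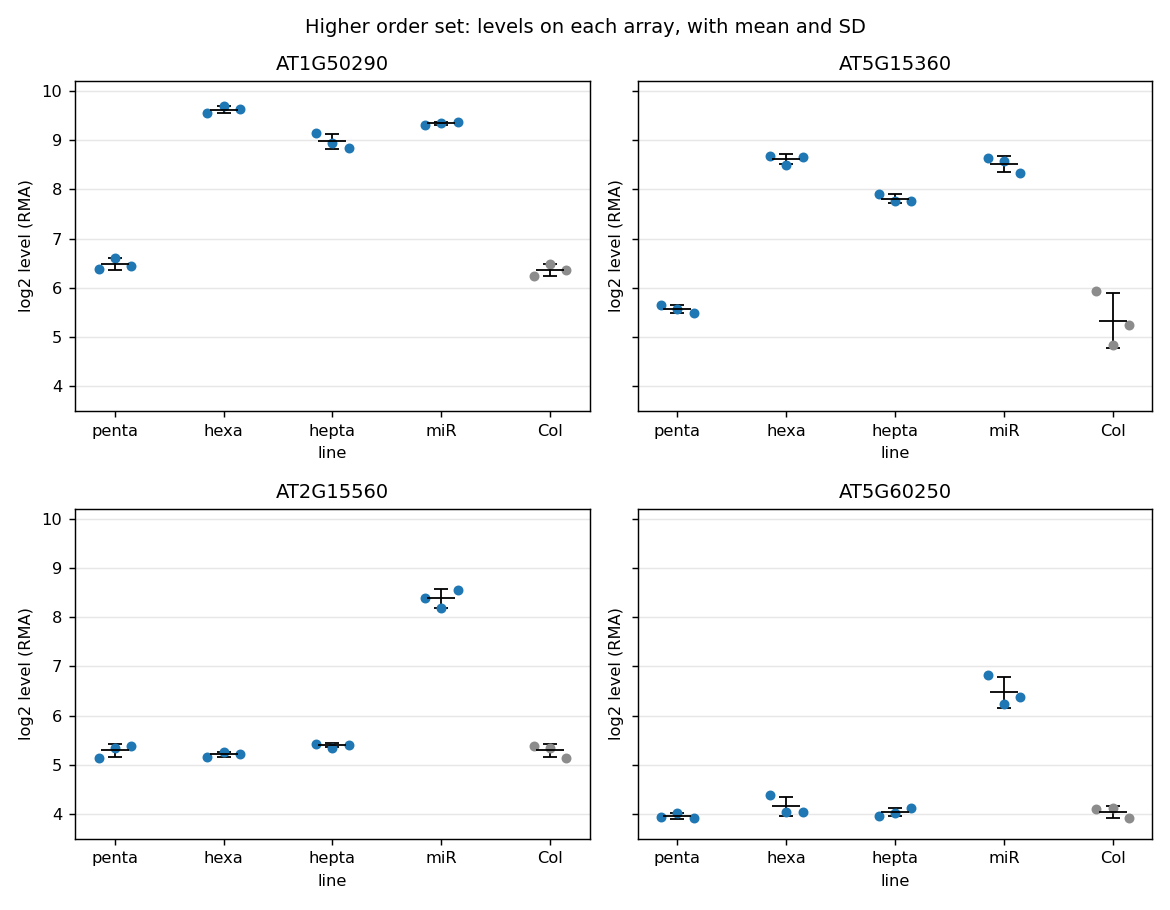
Log2 levels of the 4 genes on each array of the higher order set (y axis) in penta, hexa, hepta, miR and Col (x axis). Points are arrays, blue for lines and grey for Col, and bars give the mean and SD of 3 arrays. AT1G50290 and AT5G15360 are high in hexa, hepta and miR, and AT2G15560 and AT5G60250 in miR.

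AT2G15560 had log2 levels of 8.38, 8.19 and 8.56 in miR, against 5.39, 5.35 and 5.15 in Col. The remaining lines lay between 5.15 and 5.42, and each overlapped Col. Their means were 5.29 ± 0.13 in penta, 5.21 ± 0.04 in hexa and 5.40 ± 0.04 in hepta, with Col at 5.30 ± 0.13 (SD, n = 3 each). MiR differed from Col by 3.08 ± 0.09 (SE), an 8.46-fold higher signal. It lay above hexa by 3.17 ± 0.09, above hepta by 2.98 ± 0.09 and above penta by 3.09 ± 0.09. In the comparison of miR with hexa, no other probe set rose by more, a rank that follows in part from the choice of this gene for its gain. The hexa and hepta arrays did not overlap each other, with hepta 0.18 ± 0.09 higher, a small step beside the gain in miR.

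AT5G60250 had log2 levels of 6.82, 6.23 and 6.37 in miR, against 4.10, 4.13 and 3.91 in Col. Penta, hexa and hepta lay between 3.93 and 4.38, and each overlapped Col. It lay at percentiles 49.5 to 57.2 of the miR arrays and 18.2 to 23.5 of the Col arrays. The log2 difference from Col was 2.42 ± 0.12 (SE), 5.37-fold on the RMA values, and within the higher order set the SD was 0.31 in miR and 0.05 to 0.19 in the other groups. Whether the Col signal lay above background was not tested, and arrays compress differences at signals this low, so the fold and its rank describe the RMA values alone.

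Among all 22746 probe sets, the rise from Col ranked AT5G15360 2nd and AT1G50290 3rd in hexa. In hepta AT1G50290 ranked 3rd and AT5G15360 4th. In miR the ranks were 2 for AT5G15360, 3 for AT2G15560, 4 for AT1G50290 and 6 for AT5G60250, which is 4 of the 6 highest places there. The genes were chosen for gains in hexa or miR, so high ranks there follow from that choice. The largest differences of penta from Col were 0.24 for AT5G15360 and 0.12 for AT1G50290, with 95% intervals of -0.14 to 0.61 and -0.07 to 0.30.

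Across the 15 arrays of the higher order set, AT1G50290 and AT5G15360 correlated at r = 0.979, and AT2G15560 and AT5G60250 at r = 0.984. Pairs across the 2 combinations correlated at 0.408 to 0.503. These arrays share their normalization and their groups, so the values describe the likeness of the patterns and carry no test.

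Other genes with the most similar patterns were sought among 261 further probe sets with a single gene whose group means spanned at least 1 log2 unit. For AT1G50290 the 3 most alike were AT5G19250 (r = 0.982 over 15 arrays), AT5G15360 and AT5G24240 (r = 0.977). For AT5G15360 they were AT1G50290, AT5G24240 (r = 0.974) and AT4G22280 (r = 0.966). AT5G24240 had mean log2 levels of 6.99 in hexa, 6.86 in hepta, 6.91 in miR and 5.16 in penta, against 5.14 in Col. AT5G19250 stood at 10.14 in hexa, 10.08 in hepta, 10.15 in miR and 8.99 in penta, with Col also at 8.99. AT4G22280 had 5.98 in hexa, 5.95 in hepta, 6.14 in miR and 4.76 in penta, and 4.72 in Col. In each of these 3 the means of hexa, hepta and miR lay close together, above those of penta and Col. The choice by pattern makes such a split between the lines, so it is no separate result.

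For both AT2G15560 and AT5G60250 the most alike, beside each other, were AT3G17680 (r = 0.973 with each) and AT5G23910 (r = 0.960 with AT2G15560 and 0.978 with AT5G60250). AT3G17680 had a mean of 8.64 in miR, between 7.20 and 7.38 in penta, hexa and hepta, and 7.25 in Col. AT5G23910 had 5.94 in miR, 4.56 to 4.70 in penta, hexa and hepta, and 4.58 in Col. The choice by pattern made these genes high in the same line. Their steps were smaller than those of AT2G15560 and AT5G60250, which were themselves chosen for their gains.

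**Figure D2:**
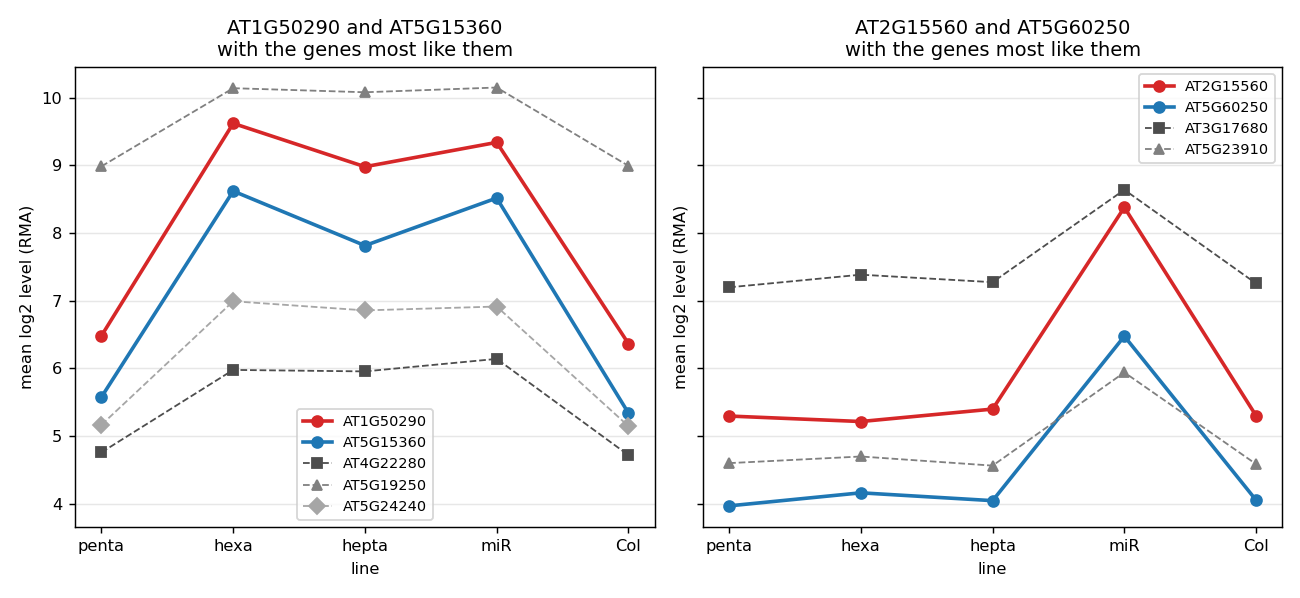
Mean log2 level (y axis) in penta, hexa, hepta, miR and Col (x axis) of AT1G50290 and AT5G15360 on the left and of AT2G15560 and AT5G60250 on the right, as solid coloured lines, with the genes whose patterns over 15 arrays were most alike as dashed grey lines. The left group is raised in hexa, hepta and miR and the right group in miR, where AT2G15560 reaches 8.38 and AT5G60250 6.47.

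Many genes with patterns like those of AT1G50290 and AT5G15360 lay on chromosome 5. With r of at least 0.9, 17 probe sets resembled AT1G50290, of which 11 were on chromosome 5, where 80 of the 261 candidates lie. For AT5G15360, 9 of 16 were on chromosome 5, with 79 of 261 candidates there. These 9 were all among the 11, whose remaining entries were AT5G15360 itself and AT5G19210. The counts for the 2 genes therefore largely repeat 1 list and are not separate observations. These chromosome 5 genes ran from AT5G13200 to AT5G32460, entries 1454 to 3736 of 8417 in gene order, and AT5G15360 is entry 1728. The ends of this stretch were set by the genes themselves. It held 33 of the 80 chromosome 5 candidates for AT1G50290, 11 of them with r of at least 0.9, and 32 of 79 for AT5G15360, 9 of them with such an r. For AT2G15560 the chromosome 5 share was 8 of 17 and for AT5G60250 6 of 14, and 2 of each lay in the same stretch, AT5G23910 (entry 2736) and AT5G17160. The 6 were all among the 8. AT5G60250 itself is entry 7467. The limit on r and this look at chromosomes were chosen after values were seen, and no test was made.

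Position along the chromosome had no part in choosing the 4 genes, so their neighbours could be tested. The 4 nearest genes on each side with a probe set of their own were taken, 32 genes with 33 probe sets. Genes without a named probe set were passed over, so the windows reached up to 16 entries away. Against Col, limma called 0 of 33 probe sets in penta, 1 in hexa, 4 in hepta and 4 in miR (adjusted p under 0.05). At an unadjusted p under 0.05 the counts were 3 in penta, 1 in hexa, 7 in hepta and 8 in miR. The median log2 differences were -0.04, 0.01, -0.02 and -0.01. Over all probe sets the called shares were 3.2% in penta, 8.05% in hexa, 12% in hepta and 20.9% in miR. Together 9 of 132 pairs of a probe set and a line were called, 6.82%, against 11% over all probe sets. By gene the share was 4 of 36 pairs around AT1G50290 (11.1%), 5 of 32 around AT5G15360 (15.6%) and 0 of 32 around each of AT2G15560 and AT5G60250, and the 9 calls fell on 7 genes.

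AT5G15420, 6 entries from AT5G15360, was the neighbour with the largest change. It is also among the chromosome 5 genes with r of at least 0.9 counted above (r = 0.951 with AT1G50290 and 0.957 with AT5G15360). Both results use the same arrays, so they are not separate observations. It had log2 levels of 6.28, 6.15 and 6.27 in hexa, 5.79, 5.79 and 5.73 in hepta, and 6.64, 6.47 and 6.59 in miR, against 4.79, 4.85 and 4.41 in Col. The log2 difference was 1.55 ± 0.105 (SE) in hexa (limma adjusted p = 2.62e-08), 1.09 ± 0.105 in hepta (adjusted p = 1.45e-06) and 1.88 ± 0.105 in miR (adjusted p = 7.93e-10). In penta, at 4.81 ± 0.18 (SD), the difference was 0.13 ± 0.105 and was not called (adjusted p = 0.64). The lines that were high were those in which AT5G15360 was high, with hepta again the lowest of them. For AT5G15420 miR lay above hexa without overlap, by 0.333 ± 0.105 (SE), a difference that was not called (limma adjusted p = 0.0598). The AT5G15360 arrays of miR and hexa overlapped. Between the 2 genes lies AT5G15390, 3 entries from AT5G15360, which differed from Col by -0.07 in hexa and 0.01 in miR. It was called lower in hepta (-0.27, adjusted p = 0.036), a call lost without Col replicate 1 or 2 or any 1 hepta array (adjusted p of 0.054 to 0.15). On the other side AT5G15340, 2 entries away, differed by -0.14 to 0.02 in the 4 lines and was not called in any.

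AT1G50280, the entry next to AT1G50290, was raised in hepta. Its log2 levels were 5.76, 5.58 and 5.85 in hepta, against 4.04, 4.44 and 4.23 in Col, a difference of 1.50 ± 0.15 (SE, limma adjusted p = 2.74e-06). In hexa, miR and penta it lay at 4.36 ± 0.15, 4.52 ± 0.18 and 4.53 ± 0.38 (SD) and differed from Col by 0.13, 0.29 and 0.29, with adjusted p of 0.73, 0.21 and 0.39. The gain of AT1G50280 was thus called in hepta, where AT1G50290 was the least raised of the 3 high lines. Whether the low Col signal of AT1G50280 lay above background was not tested, so the size of its gain describes the RMA values alone. AT1G50270, 2 entries away on the same side, differed by 0.02 to 0.18 and was not called.

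Smaller calls near AT1G50290 were FU, the FUSED protein kinase, in miR (0.55 ± 0.12, adjusted p = 0.0028), THX, the thioredoxin X gene, in hepta (-0.28 ± 0.07, adjusted p = 0.014) and AT1G50380 in miR (-0.20 ± 0.06, adjusted p = 0.028). A second probe set of FU differed in miR by 0.35 and was not called (adjusted p = 0.097). The THX call was lost without Col replicate 3 (adjusted p = 0.052) or hepta replicate 1 (0.066). The AT1G50380 call was lost without any 1 Col array or miR replicate 2 (0.053 to 0.11). Near AT5G15360, AT5G15510 was higher in miR (0.28 ± 0.09, adjusted p = 0.027), a call lost without Col replicate 1 or 3 or miR replicate 1 (0.080 to 0.089).

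No neighbour of AT2G15560 or AT5G60250 was called by limma in any of the 4 lines, with 2 and 5 of 32 pairs each at an unadjusted p under 0.05. The 8 measured genes around AT2G15560 differed from Col by -0.17 to 0.15, and the 8 around AT5G60250 by -0.23 to 0.21. The entries on either side of AT5G60250, AT5G60240 and AT5G60260, differed in miR by -0.03 ± 0.07 and 0.21 ± 0.09 (adjusted p = 0.83 and 0.14). Their levels in miR, 4.37 and 5.09, stood beside 4.40 and 4.88 in Col.

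**Figure D3:**
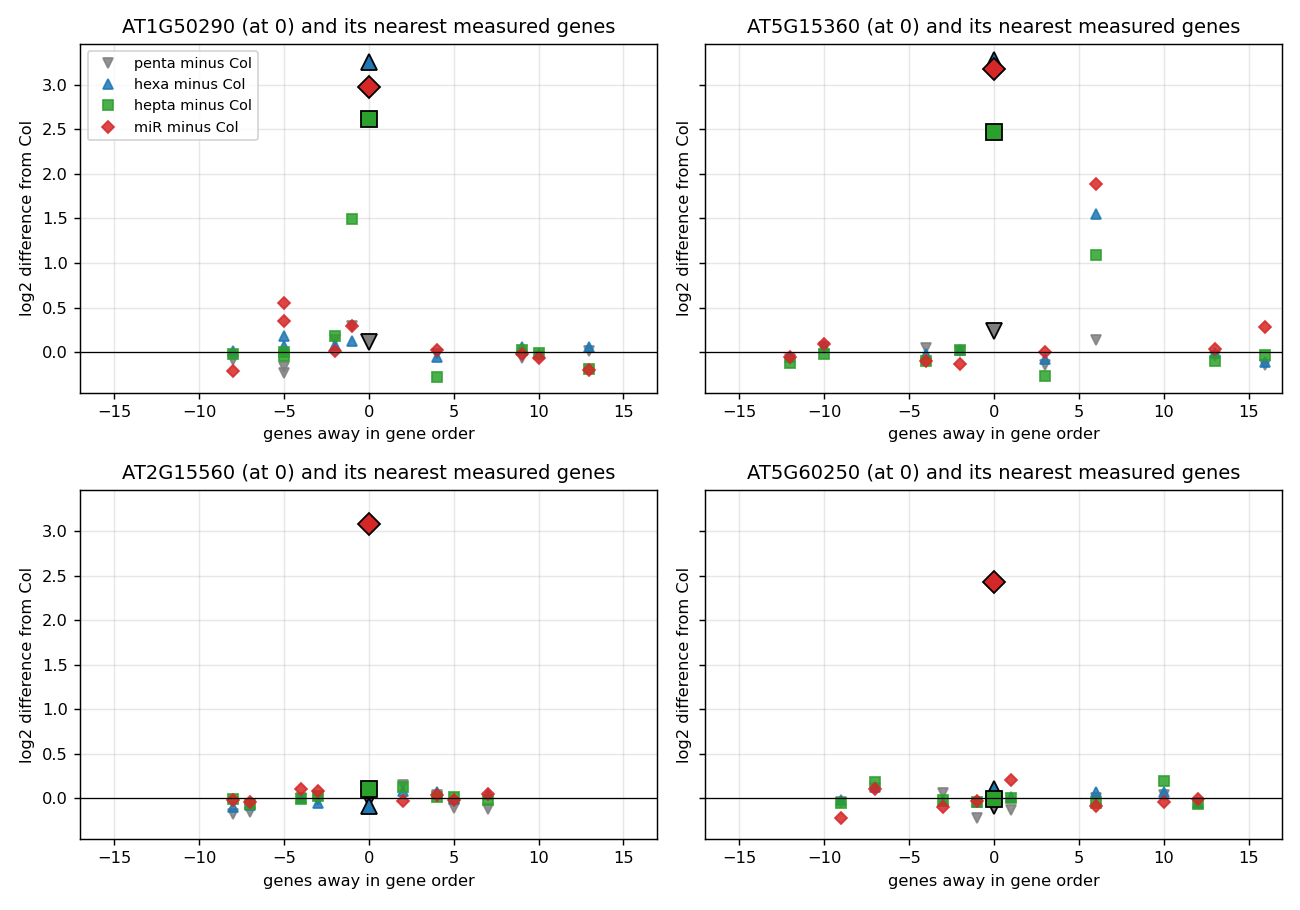
Log2 difference from Col (y axis) of each of the 4 genes, drawn large at 0, and of its nearest measured genes by the number of entries away in gene order (x axis), for penta, hexa, hepta and miR. AT5G15420 is raised in hexa, hepta and miR, as AT5G15360 is, AT1G50280 stands at 1.50 in hepta, and the neighbours of AT2G15560 and AT5G60250 stay within 0.23 of 0.

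The single set, with its 8 lines, was not used to choose the 4 genes. Its calls are counted here in either direction, and all its differences from Col share the same 3 Col arrays. Of 32 pairs of a gene and a line 3 were called, 9.38% against 22.8% of such pairs over all probe sets (limma, adjusted p under 0.05), and 7 had an unadjusted p under 0.05. By line the share of all probe sets called was lowest in acs5D (17.6%), acs5C (19.2%) and acs4A (20.3%). It was 21.4% for acs1A and 22.7% for acs2B, and highest in acs9B (25.6%), acs2C (26.6%) and acs6E (28.8%). The largest rise was 0.22 for AT5G15360 in acs2C (adjusted p = 0.11). Over all 32 pairs the upper end of the 95% interval did not pass 0.42, which leaves a gain of the size seen in hexa or miR outside every interval.

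AT1G50290 was below the mean of the 3 shared Col arrays in all 8 single lines, with line means of 5.88 to 6.11 against 6.19 ± 0.06 in Col (SD, n = 3). The 3 calls were its lower levels in acs4A, with -0.31 ± 0.08 (SE, adjusted p = 0.0052), acs9B, with -0.27 ± 0.08 (adjusted p = 0.011), and acs5C, with -0.23 ± 0.08 (adjusted p = 0.036). Over all probe sets 10.7% were called lower in acs4A, 14.7% in acs9B and 10.5% in acs5C. The acs5C call was lost without Col replicate 1 or 2 or acs5C replicate 2 or 3 (adjusted p of 0.055 to 0.19), and on the arrays of the line and Col alone all 3 were lost (0.055 to 0.16). In these lines 36, 32 and 33 of the 45 probe sets for added control transcripts also differed from Col, and their part in these calls was not tested.

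AT5G15360 had line means of 4.39 in acs5C to 4.73 in acs2C, against 4.51 ± 0.04 in Col (SD), and arrays of 4.25 to 4.83. AT2G15560 ran from 5.31 in acs6E to 5.57 in acs2C, against 5.38 ± 0.13 in Col. AT5G60250 ran from 4.43 in acs1A to 4.75 in acs5C, against 4.63 ± 0.26 in Col. Of the 24 pairs of these 3 genes and a line 0 were called, with 3 at an unadjusted p under 0.05, all of them rises, in acs2C and acs9B. Both AT5G15360 and AT5G60250 were dim throughout the single set, at percentiles 19.1 to 27.4 of the line arrays for AT5G15360 and 17.1 to 27.6 for AT5G60250, which limits what small differences between these values can show.

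A moderated F-test among the 8 lines, which leaves the Col arrays out of the comparison, called 1 of the 4 genes, where 37.5% of all probe sets were called. For AT2G15560, whose line means spanned 0.26, the adjusted p was 0.047, and the call did not hold under 21 of 30 alternatives. The adjusted p was 0.052 for AT5G15360, 0.079 for AT1G50290 and 0.11 for AT5G60250, with spans of 0.33, 0.23 and 0.32. The remaining genes were called under some alternatives, AT5G15360 under 7 of 29 alternatives, AT1G50290 without acs5C replicate 1 (adjusted p = 0.021) and AT5G60250 without acs2C replicate 3 (0.015).

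**Figure D4:**
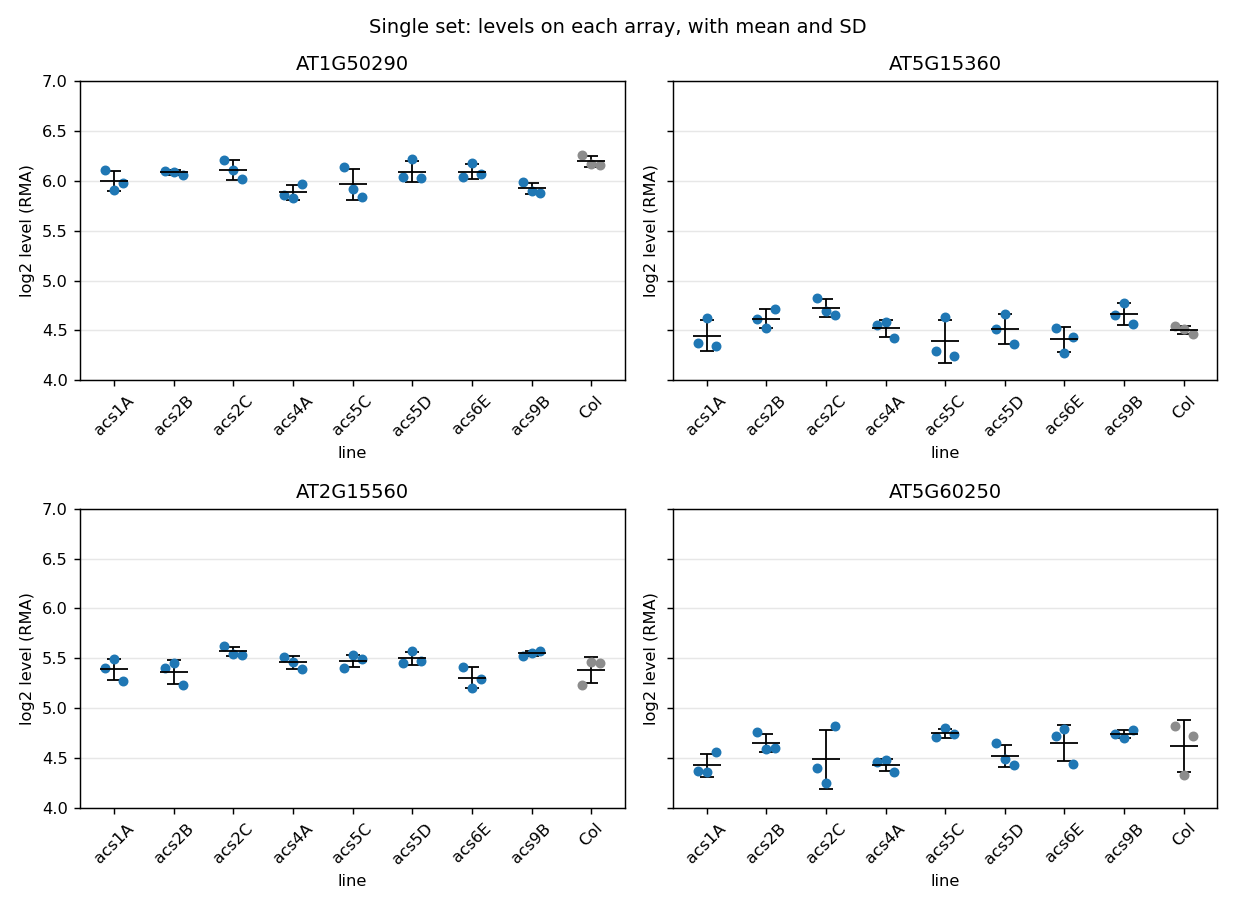
Log2 levels of the 4 genes on each array of the single set (y axis) in the 8 single lines and Col (x axis). Points are arrays, blue for lines and grey for Col, and bars give the mean and SD of 3 arrays. Line means lie within 0.31 of Col for every gene, and span at most 0.33 among the lines.

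The 2 neighbours with large changes were also read in the single set. AT5G15420 differed from Col by 0.12 to 0.37 in the 8 lines and was called in acs2C (0.37 ± 0.12, SE, adjusted p = 0.028, with 26.6% of probe sets called there). Its signal was low, at 4.487 ± 0.185 in acs2C and 4.115 ± 0.206 in Col (SD), which limits what this difference can show. AT1G50280 had lower means than Col in all 8 lines (differences of -0.82 to -0.19), with 6 calls, and was lowest in acs6E, at 4.70 ± 0.12 against 5.51 ± 0.25 in Col (SD), a difference of -0.82 ± 0.11 (SE, adjusted p = 9.61e-06, with 28.8% called there). The higher level of AT1G50280 in hepta thus had no match in direction among the single lines. Of the other called neighbours, THX was called lower in all 8 single lines (-0.33 to -0.15), AT5G15510 was called in 5 (-0.72 to -0.10 over the 8 lines) and FU in 2 (-0.28 to 0.21), while AT1G50380 and AT5G15390 were called in 0 by limma (2 and 0 lines at an unadjusted p under 0.05). The same 3 Col arrays enter every line's difference, so calls in several lines are not separate evidence. Over all probe sets 17.6% (acs5D) to 28.8% (acs6E) were called per line. In each line 26 to 36 of the 45 probe sets for added control transcripts also differed from Col, and their part in these calls was not tested. In the F-test among the 8 lines, THX (adjusted p = 0.063), AT5G15420 (0.47) and AT5G15390 (0.295) were not called. FU (0.00061), AT1G50380 (0.0025), AT1G50280 (0.00335) and AT5G15510 (0.026) were called, where 37.5% of all probe sets were.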

How the data were processed

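Transcripts were measured on 42 one-colour arrays. The deposited log2 values were made by the authors with RMA, per the submitters' processing notes. Neither its version nor which arrays shared a run is given in the sources used here. Tests stayed within a set. Gene names came from the array platform table, and RefSeq (TAIR10.1) gave current names and gene order, with no coordinates printed. Of 22810 probe sets, 64 controls were left out and 22746 tested. A single gene was listed for 13513, several for 503 and none for 8730.

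From the deposited values, limma 3.58.1 in R 4.3.3 (lmFit, eBayes) was fitted with 1 coefficient per group over all arrays of a set and no filter. P-values were two-sided, adjusted by Benjamini-Hochberg over all tested probe sets and called below 0.05. They rest on the spread within groups of 3 samples, pooled over all groups of a set and moderated across probe sets by eBayes. The number of arrays limits the precision. The tests were tried on simulated data first.

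The genes, lists and tests were chosen with earlier results of these data known. Named genes were the 4 genes, their 4 nearest measured genes on each side and the 3 most alike in pattern for each (Pearson r over 15 arrays). Of the neighbours, those called were to be named, and the uncalled ones named beside them were chosen after their values were seen. A planned list of genes with related proteins was not analysed here. Alternatives were a second quantile normalization, a filter on dim probe sets, eBayes with trend and robust settings, the arrays of 2 groups alone, a replicate block, leaving out each array, and, among single lines, the level of the bioC hybridization control as a batch term.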

Additional observations from a re-analysis of the deposited data

Results flagged for a closer look

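Neighbours of AT1G50290 and AT5G15360 called against Col were also compared between each pair of higher order lines. These limma p-values were adjusted over all probe sets. The same arrays picked these genes, so differences between lines are in part fixed by that choice and are no separate support. Only comparisons called at an adjusted p under 0.05 are listed. AT5G15420 was higher than in penta by 1.42 ± 0.105 (SE) in hexa (adjusted p = 9e-08), 0.96 ± 0.105 in hepta (1.1e-05) and 1.75 ± 0.105 in miR (2.2e-09). It was lower in hepta than in hexa (-0.46 ± 0.105, adjusted p = 0.016), and higher in miR than in hepta, by 0.80 ± 0.105 (7.6e-05). AT1G50280 was higher in hepta than in penta by 1.20 ± 0.15 (6.3e-05) and than in hexa by 1.37 ± 0.15 (2.5e-05), and miR minus hepta was -1.21 ± 0.15 (4.9e-05).

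The remaining called differences were at most 0.78 in size. The second probe set of FU, not called against Col, was not compared between lines. FU was higher than in penta by 0.42 in hexa (adjusted p = 0.037) and 0.78 in miR (0.00017), and higher in miR than in hepta by 0.59 (0.0030). THX was higher in miR than in hepta by 0.30 (0.0092), and AT5G15390 by 0.28 (0.037). AT1G50380 differed by -0.22 between miR and penta (0.023), -0.24 between hepta and hexa (0.037) and -0.26 between miR and hexa (0.017). AT5G15510 was higher in miR than in penta by 0.42 (0.0023), than in hexa by 0.39 (0.0086) and than in hepta by 0.31 (0.028). Causes were not tested. Groups of 3 arrays are too small for the search for a single outlying sample.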

How the results depend on the processing

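The log2 differences of the 4 genes in the higher order set moved by less than the pooled SD of the 2 groups compared under a second quantile normalization, the replicate block and each left-out array. Differences of hexa from Col stayed at 3.20 to 3.32 for AT1G50290 and 3.03 to 3.58 for AT5G15360, and those of miR at 2.99 to 3.17 for AT2G15560 and 2.25 to 2.55 for AT5G60250. Of 132 neighbour pairs 9 were called, and 6 to 11 under the alternatives. In the single set the 3 calls of 32 against Col became 0 on the arrays of the line and Col alone and 2 to 5 with an array left out (5 without Col replicate 2). The 1 call among the single lines became 0 after a second quantile normalization and with trend and robust settings, and 0 to 2 with an array left out. The adjusted p of AT2G15560 there was 0.022 to 0.13 over the alternatives. Same-numbered replicates deviated together little on average (mean r = 0.0257 in the higher order set and 0.00966 in the single set). For other numbers the mean r was -0.0128 and -0.0047. In the higher order set 9 of 15 arrays were most alike with their own number, and in the single set 10 of 27. The numbers were not taken as pairs in the main fit, and the replicate block was run as an alternative. With the replicate block, calls against Col numbered 760 in penta, 1870 in hexa, 2785 in hepta and 4873 in miR, against 729, 1830, 2739 and 4748 without it. The block also called AT5G15360 among the single lines (adjusted p = 0.035) and lost AT2G15560 (0.050). For results that changed, the cause was not tested. Genes of related proteins were not run. Low signal limits what the values of AT5G60250 outside miR, and of AT5G15360 in the single set, can show, and the filter on dim probe sets removed both from the single set.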
